A study of Mus musculus with 4 samples.

Results

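The 10 genes described here are target genes of the tumour suppressor p53 that are widely read as markers of the DNA damage response: Cdkn1a, Mdm2, Ccng1, Bax, Trp53inp1, Gdf15, Phlda3, Sesn2, Gadd45a and Btg2. They were chosen by gene symbol, and all 10 were found among the 13903 genes of the deposited table. Their RNA was measured by bulk mRNA-seq of livers from OGT-floxed C57BL/6J mice. All mice were on the CDE diet, a choline-deficient and ethionine-supplemented feed that injures hepatocytes and activates duct-like progenitor cells. Mice labelled OGT-KO carried AAV8-TBG-CRE, a virus in which the thyroxine-binding globulin promoter drives Cre recombinase in hepatocytes, so other liver cells keep the gene for the O-GlcNAc transferase OGT. Mice labelled control carried AAV8-TBG-eGFP. Livers of both labels were taken with no recovery or with 7 days of recovery after the diet. Each of these 4 conditions was sequenced as 1 library, for which the RNA of 3 mice was combined in equal parts. No value therefore has a replicate error, and no p-value is given. The 2 questions the design poses are how the labels differ at each time and how each label differs between the times.

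The protein p53 is a transcription factor that is kept low in unstressed cells by the ubiquitin ligase MDM2. DNA damage and other stresses stabilise p53, which binds paired repeats in DNA and activates genes that stop the cell cycle, start apoptosis, repair DNA or limit growth signalling. One of its first targets is Mdm2 itself, which closes a feedback loop. In the liver, Cdkn1a, Gdf15 and Btg2 also respond to other stresses and to growth signals, and Gdf15 and Sesn2 are known targets of the integrated stress response too.

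The DNA element that p53 binds is shown first because it is what these genes are known to have in common. Promoter windows of 300 bases, of which 250 lie before the annotated start site, were taken from RefSeq (GRCm38.p6) by gene symbol. Of the 10 genes, 9 had at least 1 window, 11 windows in all, and Trp53inp1 had none. The windows were compared with the p53 response-element consensus, a 20-letter motif made of 2 equal repeats without a spacer, which reads the same on both strands. At most 1 mismatch was found in 2 of the 11 windows, against 0.0883% of 32851 windows of the same length. The best matches of Cdkn1a and Ccng1 follow with 20 bases on each side, 5′ to 3′ on the strand of the gene, and the capitals mark the 4 core letters of each repeat.
Cdkn1a: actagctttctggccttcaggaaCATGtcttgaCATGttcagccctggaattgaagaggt
Ccng1: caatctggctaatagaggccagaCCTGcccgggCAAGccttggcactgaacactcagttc
The Cdkn1a stretch is chr17:29090908-29090967 on the plus strand, and its match lies 51 to 32 bases before the first of 2 annotated start sites, which are 2790 bases apart. The Ccng1 stretch is chr11:40755442-40755501 on the minus strand, with the match 195 to 176 bases before the start site. At most 3 mismatches were found in 4 member windows and in 6.29% of all windows. The additional ones, shown as the bare match for comparison, keep both core letters C and G in the second repeat only.
Bax: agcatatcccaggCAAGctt
Gadd45a: aaactacctagagCTGGctc
The Bax match is chr7:45467090-45467109 on the minus strand and the Gadd45a match chr6:67037632-67037651 on the minus strand. The best match had 4 mismatches for Btg2, a level that 30.2% of all windows reached. It had 5 for Mdm2, Gdf15, Phlda3, Sesn2 and the second Cdkn1a start site, a level that 76.6% of all windows reached. A match is a resemblance of letters and not a measured binding site, and p53 elements in introns or farther upstream lie outside these windows.

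The libraries held 19972699 to 22866431 reads on the listed genes. Ogt, the targeted gene, was at 64.7 CPM (reads per 1000000 on the listed genes) in the control library and 55.3 CPM in the OGT-KO library with no recovery, and at 55.7 and 77.7 CPM after 7 days. Its log2 differences, OGT-KO minus control, were -0.22 and 0.47 as deposited and -0.93 and -0.20 when libraries were scaled by the median of their gene ratios. As deposited, the value after 7 days thus goes against the label. The values count the whole gene and do not separate its deleted part, so OGT-KO library and control library below name the label only. The 8963 genes that averaged 10 CPM or more were compared, and a gene was called at a 2-fold difference of CPM + 1. The median log2 difference of these genes, OGT-KO minus control, was 0.51 with no recovery and 0.48 after 7 days as deposited, and -0.19 and -0.18 with that median-ratio scaling. Hepatocyte markers were lower in the OGT-KO libraries, with 8 of 8 below control at both times, whereas 75.6% and 78.5% of the genes compared were above control. At least 2-fold lower were 6 with no recovery and 5 after 7 days. Their summed level was 52091 and 63317 CPM against 81785 and 90919 CPM, and none was at 0. Alb, the highest of the 8, differed least, by -0.21 and -0.08 on the log2 scale. Markers of stellate cells and myofibroblasts were at least 2-fold higher at both times for 10 of 10 genes (3518 and 4277 CPM against 224 and 162 CPM). Of 10 Kupffer cell and monocyte markers, 9 were at least 2-fold higher at both times (958 and 728 CPM against 243 and 87.7 CPM), as were 7 of 8 duct and progenitor markers (1310 and 1705 CPM against 80.1 and 101 CPM). Of 8 endothelial markers, 4 were at least 2-fold higher with no recovery and 3 after 7 days. The 5 lymphocyte markers in the table summed to at most 9.23 CPM in any library, with Cd8a at 0 in the control library after 7 days. In bulk RNA, more cells of a type and more RNA per cell cannot be told apart, and the part of these cell types in the results below was not tested.

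All 10 genes were at least 2-fold higher under the OGT-KO label than under the control label, both with no recovery and after 7 days. Among all genes compared, 24.4% were at least 2-fold higher and 5.69% lower with no recovery, and 22.9% higher and 4.27% lower after 7 days. On the log2(CPM + 1) scale the 10 genes had a median difference of 2.49 and then 1.83. Both OGT-KO libraries were above both control libraries for all 10, as for 70% of the genes compared. All 10 genes passed the filter on low values, 5 of them with a mean under 10 CPM over the control libraries. Every gene was highest in the OGT-KO library with no recovery, next in the OGT-KO library after 7 days, and lowest in the control libraries, an order held by 43.6% of the genes compared.

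**Figure D1:**
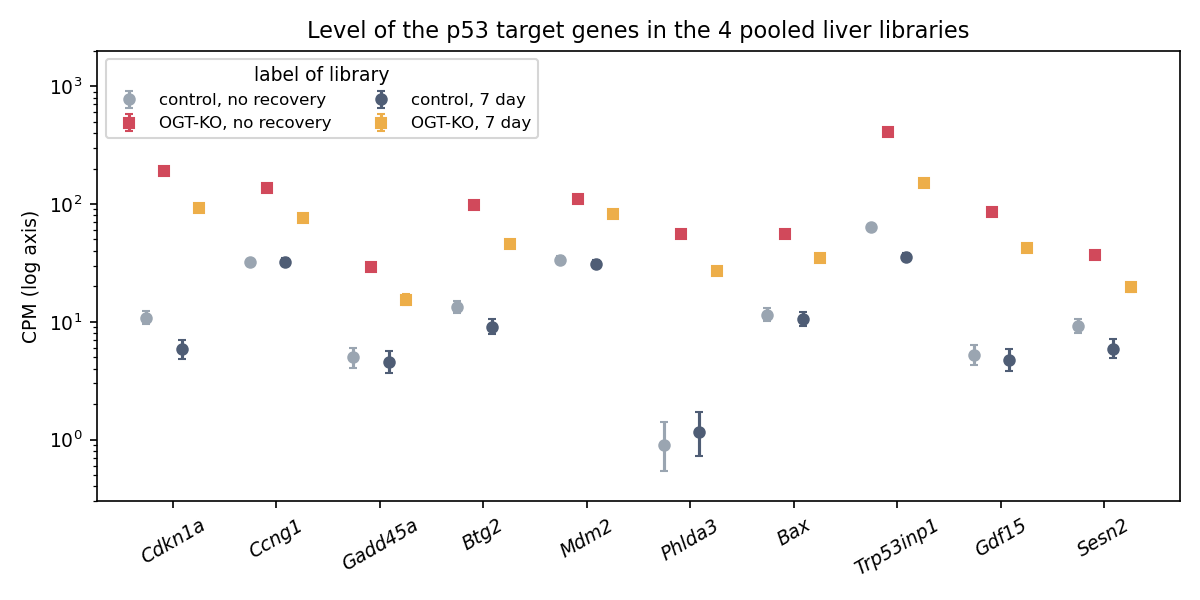
CPM of each gene on a log axis in the 4 libraries, with circles for control and squares for OGT-KO and bars for the 95% exact Clopper-Pearson interval of the reads (counting error only). Both OGT-KO squares lie above both control circles for all 10 genes, with the widest gap at Phlda3, near 1 CPM in control.

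Among the genes that act on the cell cycle, Cdkn1a encodes p21, the inhibitor of cyclin-dependent kinases through which p53 arrests cells. Cdkn1a was at 10.9 CPM in the control library and 191 CPM in the OGT-KO library with no recovery, and at 5.86 and 93.1 CPM after 7 days. Both libraries labelled OGT-KO were far above both control libraries, and within each label the level was lower after 7 days. The ratio of OGT-KO to control was 17.6 with no recovery (95% exact interval from the reads 15.4 to 20.2) and 15.9 after 7 days (13.2 to 19.3). These intervals overlapped, and of the genes compared, 99.2% and 98.4% had a smaller log2 difference than Cdkn1a. Such intervals cover counting error only and not the differences between mice.

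Btg2, an antiproliferative gene of the BTG/TOB family, was at 13.3 and 97.3 CPM in control and OGT-KO with no recovery and at 9.11 and 45.5 CPM after 7 days. The Btg2 ratio was 7.31 (6.46 to 8.30) and then 4.99 (4.26 to 5.88). Gadd45a, a stress-induced gene of growth arrest and DNA repair, was at 4.99 and 29.1 CPM with no recovery and at 4.56 and 15.4 CPM after 7 days. The control levels of Gadd45a lay within each other's counting intervals, while its OGT-KO level was 5.83 times control (4.74 to 7.23) and then 3.37 times control (2.67 to 4.30). Ccng1 encodes cyclin G1, which recruits a phosphatase that activates MDM2. Its level was the same to 3 digits in both control libraries, at 31.9 CPM, and stood at 138 CPM in OGT-KO with no recovery and 75.6 CPM after 7 days. Ccng1 thus had ratios of 4.31 (3.97 to 4.69) and 2.37 (2.16 to 2.60), the latter being the smallest among the 10 genes after 7 days.

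Of the genes that restrain p53 or its rivals, Mdm2 encodes the ligase that degrades p53. It was at 33.7 CPM in control and 109 CPM in OGT-KO with no recovery, and at 31.2 and 82.3 CPM after 7 days. Mdm2 showed the smallest ratio of the 10 genes with no recovery, 3.25 (2.99 to 3.53), and a ratio of 2.64 (2.41 to 2.89) after 7 days. Phlda3, a small pleckstrin-homology protein that competes with AKT at the membrane, was close to absent in control. Phlda3 had 0.894 CPM (19 reads) in control with no recovery and 1.15 CPM (23 reads) after 7 days, against 55.6 CPM (1272 reads) and 27.0 CPM (610 reads) in OGT-KO. Its CPM ratio was 62.2 with no recovery, with an interval from 39.7 to 104, and 23.5 after 7 days (15.5 to 37.3). These are the highest plain ratios of the set, but they rest on 19 and 23 control reads, and the order depends on the scale. On the log2(CPM + 1) scale Phlda3 had 4.90 against 4.02 for Cdkn1a with no recovery, and 3.70 against 3.78 after 7 days. With a pseudocount of 10 it had 2.59 with no recovery, below Cdkn1a (3.27) and Gdf15 (2.64).

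Bax and Trp53inp1 act in cell death. Bax encodes the pore-forming effector of mitochondrial apoptosis and was at 11.5 CPM in control and 55.5 CPM in OGT-KO with no recovery, and at 10.6 and 34.8 CPM after 7 days. The ratio of Bax was 4.83 (4.21 to 5.56) and then 3.28 (2.81 to 3.83). Trp53inp1, whose product aids p53 phosphorylation and autophagy, was at 64.1 CPM in control and 408 CPM in OGT-KO with no recovery, and at 35.6 and 149.6 CPM after 7 days. The OGT-KO level of Trp53inp1 after 7 days was still above both control levels, with ratios of 6.36 (6.01 to 6.73) and 4.20 (3.87 to 4.56).

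Gdf15 encodes a secreted cytokine of the TGF-β family that signals tissue stress. It was at 5.22 CPM in control and 85.0 CPM in OGT-KO with no recovery, and at 4.76 and 42.1 CPM after 7 days. The Gdf15 ratio was 16.3 with no recovery (13.4 to 19.9) and 8.84 after 7 days (7.15 to 11.0), and these intervals did not overlap. Sesn2 encodes sestrin 2, a leucine sensor that restrains mTORC1. It was at 9.27 CPM in control and 36.6 CPM in OGT-KO with no recovery, and at 5.91 and 19.6 CPM after 7 days. The Sesn2 ratios of 3.95 (3.37 to 4.63) and 3.32 (2.70 to 4.10) had overlapping intervals.

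Levels of different genes were compared only per length, as CPM per kilobase of merged exons (GENCODE M21). On that scale Trp53inp1 (63.0), Cdkn1a (53.8) and Gdf15 (45.9) led in the OGT-KO library with no recovery, and Sesn2 was the lowest at 10.5. In the control library with no recovery, Trp53inp1 (9.90) and Ccng1 (9.08) led and Phlda3 was the lowest at 0.573. Cdkn1a (3.06), Gadd45a (2.83), Gdf15 (2.82) and Sesn2 (2.67) lay close together in control, so Cdkn1a and Gdf15 stood higher in the order of the genes under OGT-KO than under control. After 7 days Ccng1 (9.10) was ahead of Bax (6.74) in control. In OGT-KO the same genes led in another order, with Cdkn1a (26.2) ahead of Trp53inp1 (23.1) and Gdf15 (22.7). Bax (22.1) and Ccng1 (21.5) followed closely.

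**Figure D2:**
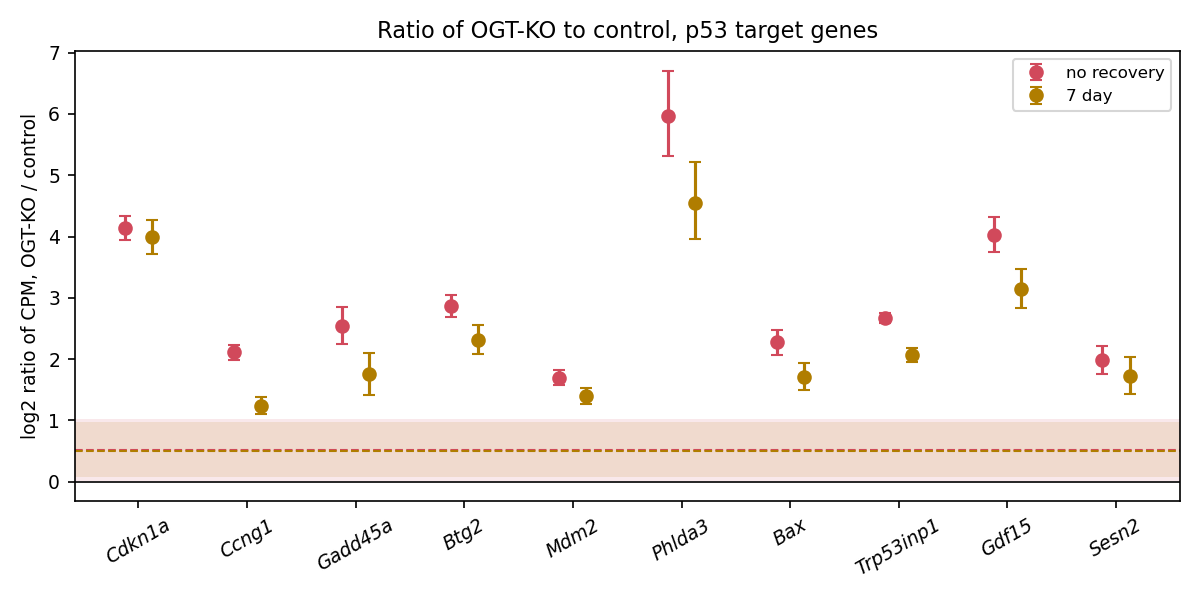
Log2 ratio of CPM, OGT-KO to control, for each gene with no recovery and after 7 days. Bars are 95% exact counting intervals, and the dashed lines and bands are the median and middle quartiles of all genes compared, whose medians were 0.52 and 0.50. All 20 points lie above the bands, and Phlda3, Cdkn1a and Gdf15 are the highest.

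Relative to the median of the genes compared, the 10 genes were higher by 1.16 to 4.39 on the log2 scale with no recovery and by 0.74 to 3.30 after 7 days. With median-ratio scaling all 10 remained above 0 at both times, and 9 were at least 2-fold higher with no recovery (10.4% of genes compared) but only 5 after 7 days (11.6%), namely Cdkn1a, Trp53inp1, Gdf15, Phlda3 and Btg2. Mdm2 was the one under 2-fold with no recovery on that scaling, at 0.96. After 7 days Bax (0.98), Gadd45a (0.96) and Sesn2 (0.95) lay just short of 2-fold on it, and Mdm2 (0.70) and Ccng1 (0.55) farther below.

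Between the times, all 10 genes were lower after 7 days in the OGT-KO library, by a median of -0.94 on the log2 scale against -0.03 for all genes compared. Of these, 4 were at least 2-fold lower, where 0.435% of the genes compared were: Trp53inp1 (-1.44), Btg2 (-1.08), Cdkn1a (-1.03) and Phlda3 (-1.01). Gdf15, at -0.9985, lay just short of 2-fold, and 1.04% of the genes compared were at least 2-fold higher. With upper-quartile or median-ratio scaling 2 of the 10 genes were 2-fold lower, against 0.368% and 0.324% of the genes compared. The smallest difference was that of Mdm2, at -0.41, and 6.55% of the genes compared had a lower value than it. For all 10 genes the counting interval of the ratio lay below 1. Intervals away from 1, on either side, were common at this depth. An adjusted exact binomial test of the reads, which compares libraries and not conditions, called 5048 of the 8963 genes compared.

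In the control libraries, none of the 10 genes was 2-fold lower or higher after 7 days, where 0.96% of all genes compared were lower and 0.245% higher. The median was -0.11 against -0.05 for all genes. Trp53inp1 (-0.83), Cdkn1a (-0.79), Sesn2 (-0.57) and Btg2 (-0.50) were lower with counting intervals that excluded equality. The intervals of Mdm2, Ccng1, Bax, Gdf15, Phlda3 and Gadd45a included it. An adjusted exact binomial test of the reads, which compares libraries and not conditions, called 4 of the 10 genes here. It also called 3524 of the 8963 genes compared, so an interval away from equality was common. Kupffer cell and monocyte markers were at least 2-fold lower in control after 7 days for 6 of the 7 compared, and their part in these values was not tested.

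**Figure D3:**
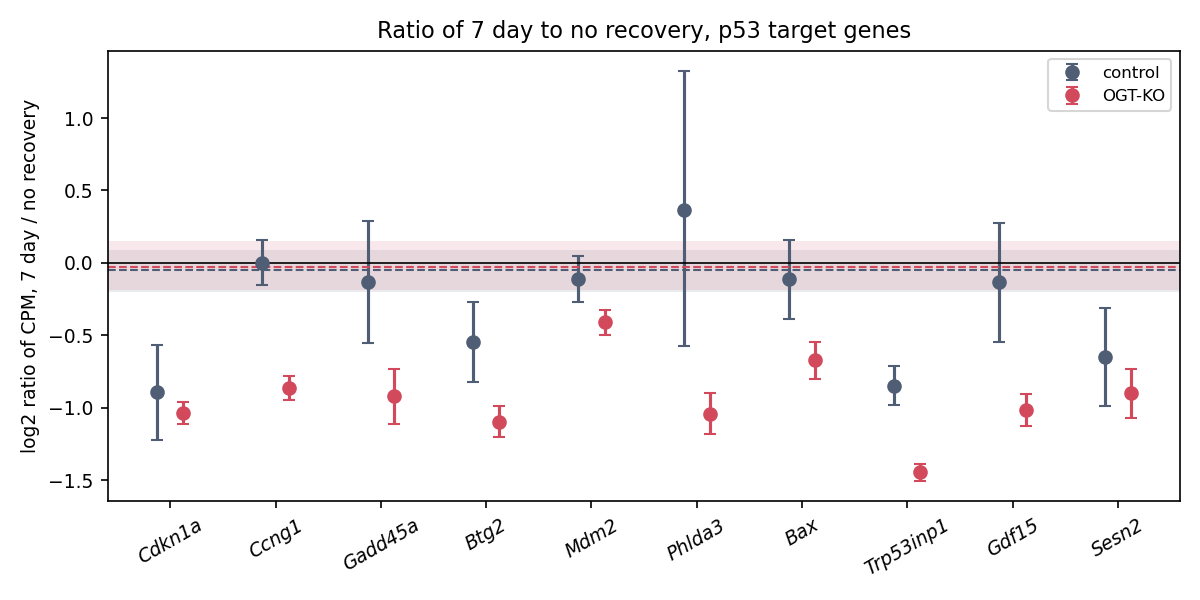
Log2 ratio of CPM after 7 days to no recovery for each gene, in the control libraries and OGT-KO, with 95% exact counting intervals. The bands mark the middle quartiles of all genes compared. All 10 OGT-KO points lie below the bands, whereas the control intervals of 6 genes span 0.

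The difference between OGT-KO and control was smaller after 7 days than with no recovery for 10 of 10 genes, as for 45.7% of the genes compared. The median of this difference between the times was -0.60 for the 10 genes and 0.03 for all genes compared. It was largest for Phlda3 (-1.20), Gdf15 (-0.89) and Ccng1 (-0.86) and smallest for Cdkn1a (-0.24). With 1 library per condition this difference could not be tested, and the comparison within OGT-KO shares its no-recovery library with the comparison of the labels.

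A wider list of 32 other p53 targets held genes of both kinds, called and not called. Of the 25 that were compared, 15 were at least 2-fold higher in OGT-KO with no recovery and 11 after 7 days, and 0 were lower, with medians of 1.10 and 0.81. Among all genes compared, 24.4% and 22.9% were at least 2-fold higher. With median-ratio scaling the counts were 8 and 9, against 10.4% and 11.6% of the genes compared. Several of the genes called, among them the 4 described next, were below 10 CPM in control. These passed the filter only through the OGT-KO libraries, which favours such calls. Over all 32, without the filter, 21 and 16 were at least 2-fold higher, as were 4595 and 4492 of all 13903 genes. The death receptor gene Tnfrsf10b had 0.612 CPM in control and 25.9 CPM in OGT-KO with no recovery, and 0.35 and 13.2 CPM after 7 days. Apaf1, the scaffold of the apoptosome, was at 1.46 and 25.2 CPM and then at 1.85 and 19.4 CPM. Both were thus higher in OGT-KO at each time and lower there after 7 days than before. Gtse1 (1.46 and 17.8 CPM, then 1.35 and 21.7 CPM), a gene of G2 and S phase, and Ptpn14 (2.78 and 19.7 CPM, then 2.30 and 30.3 CPM), a phosphatase that restrains YAP, were higher in OGT-KO after 7 days than with no recovery. Most of the list was not: between the times in OGT-KO, 4 of the 25 genes compared were above 0, the median was -0.33 and 1 gene was at least 2-fold lower.

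Of 17 genes that regulate p53, 15 were in the table and 10 were compared. At each time 2 of these were at least 2-fold higher in OGT-KO and 0 lower, where 24.4% and 22.9% of all genes compared were higher. With median-ratio scaling 0 were higher, against 10.4% and 11.6% of the genes compared. Trp53, the gene of p53, was at 25.8 CPM in control and 72.1 CPM in OGT-KO with no recovery, and at 31.8 and 69.3 CPM after 7 days. Its log2 difference was 1.45 and 1.10, or 0.74 and 0.43 with median-ratio scaling. Unlike the 10 targets, Trp53 was nearly level between the times in OGT-KO, with a ratio of 0.960 (0.896 to 1.03). Mdm4, the partner of MDM2 that masks p53, had log2 differences of 0.99 and 0.78 and was not called at either time.

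Among 25 DNA repair and damage-sensing genes, 18 were compared and 7 were at least 2-fold higher in OGT-KO at each time, with 0 lower. The share over all genes compared was 24.4% and 22.9%. The list's medians of 0.57 and 0.64 were near those of all genes and turned to -0.12 and -0.01 with median-ratio scaling. Lig1, the DNA ligase of replication, was the most unequal at 3.10 and 25.8 CPM with no recovery and 2.95 and 33.1 CPM after 7 days. H2afx, which encodes the histone variant phosphorylated at DNA breaks, was at 16.9 and 52.6 CPM and then at 14.3 and 74.5 CPM. Topbp1 (log2 differences of 1.33 and 1.77) and Mdc1 (1.20 and 1.76), which encode checkpoint adaptors, followed, and for all of these the difference was greater after 7 days.

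A list of 15 cell-cycle genes that p21 is known to repress through the DREAM complex was higher in both OGT-KO libraries. All 10 that were compared were at least 2-fold higher at both times, with medians of 2.96 and 3.59. Each was below 10 CPM in both control libraries and passed the filter only through the OGT-KO libraries, which favours such calls. Over all 15, without the filter, 14 and 15 were, as were 4595 and 4492 of all 13903 genes. Top2a, the topoisomerase of mitotic chromosomes, was at 2.21 and 40.6 CPM with no recovery and 2.10 and 80.1 CPM after 7 days. Mki67, the gene of the proliferation marker Ki-67, was at 3.01 and 38.5 CPM and then at 3.55 and 109 CPM. Cdk1 (log2 differences of 3.14 and 3.89) and Plk1 (3.00 and 3.65), kinases of mitosis, followed. Between the times in OGT-KO, this list had a median of 0.94 where the 10 p53 targets had -0.94. In control the medians were 0.12 and -0.11.

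The integrated stress response shares Gdf15 and Sesn2 with p53. Of its 11 listed genes 7 were compared, and 4 were at least 2-fold higher in OGT-KO at each time. The share over all genes compared was 24.4% and 22.9%, or 10.4% and 11.6% with median-ratio scaling. The list's medians were 1.16 and 1.14, or 0.46 and 0.48 with median-ratio scaling, where 3 were higher at each time. Atf4 itself (log2 differences of 0.65 and -0.20) and Cebpb (0.21 and -0.06) were not called at either time. Trib3, a pseudokinase induced by ATF4, was at 5.36 and 97.3 CPM with no recovery and 6.21 and 38.1 CPM after 7 days. Ddit3, which encodes CHOP, was at 12.3 and 93.8 CPM and then at 5.31 and 23.8 CPM, and Atf3 at 2.96 and 47.6 CPM and then at 0.801 and 17.5 CPM. These 3 genes were also lower after 7 days in OGT-KO, by -1.33, -1.93 and -1.39, and the list's median there was -0.86. In control 2 of the 7 compared, Ddit3 and Atf3, were at least 2-fold lower after 7 days too, and the median was -0.18.

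Paralogs of the 10 genes differed from each other in direction. Of 17, 14 were compared, and 2 were at least 2-fold higher in OGT-KO with no recovery and 5 after 7 days, while 1 was lower at both times. Among all genes compared, 24.4% and 22.9% were higher and 5.69% and 4.27% lower. The paralogs had medians of 0.64 and 0.79, or -0.04 and 0.13 with median-ratio scaling. Phlda1 ran opposite to Phlda3, at 235 CPM in control and 33.2 CPM in OGT-KO with no recovery and at 167 and 66.0 CPM after 7 days. Btg3 (9.31 and 54.5 CPM, then 8.66 and 46.5 CPM) was higher, like Btg2, as was the Bax relative Bok (9.46 and 25.3 CPM, then 7.91 and 29.8 CPM). Sesn1, also a p53 target, had log2 differences of 0.59 and 0.79 where Sesn2 had 1.87 and 1.58. Cdkn1b, the relative of Cdkn1a that encodes p27, had 0.69 and 1.06 where Cdkn1a had 4.02 and 3.78.

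**Figure D4:**
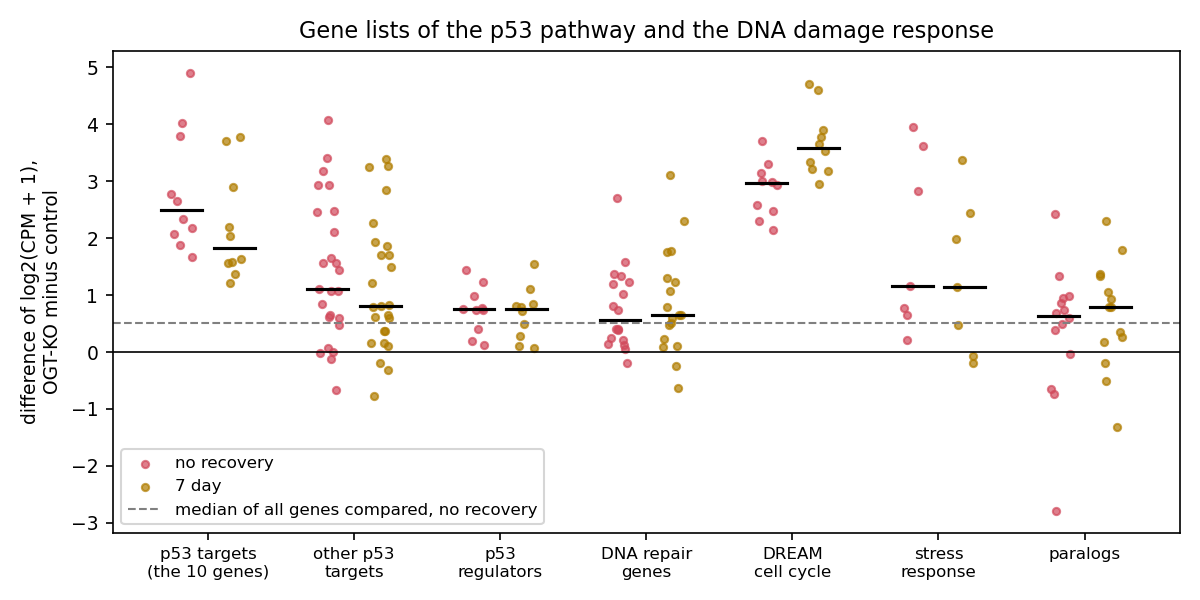
Difference of log2(CPM + 1), OGT-KO minus control, for the compared genes of each list with no recovery and after 7 days, with each list's median as a black bar and the median of all genes compared as a dashed line at 0.51. The p53 targets and the DREAM cell-cycle genes lie above 1 throughout, with a lower median after 7 days for the targets (2.49, then 1.83) and a higher one for the cell-cycle genes (2.96, then 3.59).

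By Euclidean distance of the centred log2(CPM + 1) values over the 4 libraries, the genes most like Cdkn1a among 3219 averaging 50 CPM or more were Ccn2, Srxn1, Postn, Marco and Vcam1, at distances of 0.32 to 0.57. Ccn2, a connective tissue growth factor, was the closest, at 8.14 and 146 CPM with no recovery and 3.00 and 66.7 CPM after 7 days. Of the other p53 targets of the set, only Mdm2, Ccng1 and Trp53inp1 reached this cut. The rest, and genes of the lists such as Atf3 (mean of 17.2 CPM), were not ranked. Centring takes out the level, so with 4 libraries the ranking only describes the pattern over them.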

How the data were processed

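The samples were 4 bulk mRNA-seq libraries of mouse liver, 1 per condition, each from RNA of 3 mice. The authors deposited CPM for 13903 genes; each of the 4 columns sums to 1000000, although the table is named for DESeq2 normalization. The submitters' processing notes name STAR, DESeq2 and GRCm39; the counter, annotation and filter are not given in the sources used here. Whole reads were recovered for 100% of values (within 0.01 reads). Intervals are 95% exact Clopper-Pearson intervals, conditional on the summed reads for ratios, and cover counting error only. They treat reads as independent, which PCR reads without molecular identifiers are not, so they can be too narrow. Genes averaging 10 CPM or more were compared as differences of log2(CPM + 1), which understates the change of low genes, and called at 2-fold; no test between conditions was run, since each has 1 library, and an additive fit of label and time was not made. The share of windows matching the p53 consensus used RefSeq promoters (GRCm38.p6), a build other than the submitters', matched by symbol. Alternatives changed the pseudocount, filter, scaling and threshold, or added an exact binomial test of reads. The 10 genes and all lists were chosen with earlier results of these data known. The filter averages all 4 libraries, so genes low in control can pass through the OGT-KO libraries, which favours higher calls in every list. Named genes were the 10, Ogt, Trp53, Mdm4, up to 4 genes per list at least 2-fold changed in 1 direction at both times, paralogs of described genes and the 5 genes nearest to Cdkn1a. Steps were tested on simulated reads. Python 3.11.15, numpy 2.4.6, pandas 2.3.3, scipy 1.17.1 and matplotlib 3.10.9 were used. Genes of the lists that were not in the table were not analysed here.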

Additional observations from a re-analysis of the deposited data

Results flagged for a closer look

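Ogt, the targeted gene, had opposite signs at the 2 times: OGT-KO minus control came to -0.22 before and 0.47 after the recovery on the log2 scale as deposited, and to -0.93 and -0.20 with median-ratio scaling, where the sign was the same. Between the times it differed by -0.21 in the control libraries and by 0.48 in the OGT-KO libraries. Within each pair the counting intervals lay on opposite sides of equality, and the difference between the paired values was not tested. None of the 10 p53 targets gave such a pair among the 22 pairs of values examined.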

How the results depend on the processing

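No paired analysis was possible because the labels give no replicate numbers that the conditions share. With 1 library per condition no replicate could be left out. For OGT-KO against control, the 10 genes kept their sign under each other scaling, and the least of all 128 recomputed values was 0.55. A change of pseudocount or filter cannot turn the sign of a gene, so only the scalings bear on this. With a mean of at least 50 CPM, 4 genes were left that were called at each time. Of these, 2 were called lower (2-fold) after 7 days in OGT-KO, and the control median was -0.45. Medians for no recovery and 7 days were 2.01 and 1.35 with a pseudocount of 10, 2.03 and 1.36 with upper-quartile scaling, 1.80 and 1.17 with median-ratio scaling, and 2.28 and 1.57 without the 100 highest genes in the total. With median-ratio scaling 5 genes were called after 7 days. Genes called lower after 7 days in OGT-KO numbered 1 with a pseudocount of 10 (median -0.81), 2 with upper-quartile or median-ratio scaling and 9 at 1.5-fold (209 of 8963 genes compared), where 2 were also called lower in control. Over the other lists, 33 genes were higher and 1 lower at both times. These were 51 higher without a filter, 0 at a mean of at least 50 and 52 at 1.5-fold, and 2 lower with upper-quartile scaling or at 1.5-fold and 3 with median-ratio scaling. The cause was not tested beyond what each setting changes. Higher genes made up 81.1% and 84.3% of all genes called between the labels, 55.2% and 62.1% with upper-quartile, 40.4% and 49.6% with median-ratio scaling, and 70.7% and 73.4% without the 100 highest genes. The exact binomial test with Benjamini-Hochberg adjustment, which compares libraries and not conditions, called 8011 and 7899 of 8963 genes between the labels, all 10 targets included, and removed no 2-fold call. Depth limits Phlda3 most, with 19 and 23 control reads.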
